A study of Mus musculus with 4 samples.

Results

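The genes for the 26S proteasome and for its assembly chaperones were examined in J774.1 cells, a mouse monocyte-macrophage line, after treatment with proteasome inhibitors. The 42 genes were 7 α subunits and 7 β subunits of the 20S core, 6 ATPases and 15 other genes of the 19S regulator, 5 assembly factors and 2 activators. They were found among the 20144 genes that could be named on the arrays by looking up the transcript accession of each probe in the RefSeq annotation of GRCm38.p6. All 42 were found, 31 with 1 probe and 11 with 2 probes. Cells were kept for 4 hours with MG132, a proteasome inhibitor, with epoxomicin, a 20S proteasome inhibitor, or with ONX0914, a β5 and β5i inhibitor, each at 1 μM, or with the solvent DMSO. RNA of each culture was hybridized in 1 color (Cy3) to its own array, giving 1 array per condition, and the 4 arrays shared a slide. One array is labeled ONX-0912 under treatment, whereas its title gives ONX and the treatment protocol gives ONX0914, and it was taken as ONX0914. Every value given below for ONX0914 rests on this choice, which the arrays cannot check. The array design is a human one according to the Methods and a mouse one according to the file headers.

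The 26S proteasome degrades proteins that carry chains of ubiquitin. Its 20S core is a barrel of outer α rings and inner β rings, and the inner rings hold the catalytic subunits β1, β2 and β5, encoded by *Psmb6*, *Psmb7* and *Psmb5*. The 19S regulator caps the barrel. Its base contains a ring of ATPases that unfolds substrates, its receptors Rpn10 (*Psmd4*) and Rpn13 (*Adrm1*) bind ubiquitin, and its lid subunit Rpn11 (*Psmd14*) cuts the ubiquitin chain off. The core is built with the help of the chaperone pairs encoded by *Psmg1* and *Psmg2* and by *Psmg3* and *Psmg4* and of the maturation protein encoded by *Pomp*, while *Psmd5*, *Psmd9* and *Psmd10* encode chaperones of the base. When the proteasome is inhibited, the transcription factor Nrf1 (*Nfe2l1*) is known to escape degradation and to raise transcription of proteasome genes.

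The windows from 250 bases before to 50 bases after the gene start, taken from RefSeq (GRCm38.p6), are shown for 4 members. *Adrm1*, *Psmd12* and *Psmc6* had the largest mean difference from DMSO over the 3 inhibitors, and *Pomp* differed most between inhibitors. The sequences run 5′ to 3′ on the strand of the gene, and capitals mark matches, on either strand, to TGACNNNGC, the core of the antioxidant response element, and to CCGGAAG.
Adrm1 (chr2:180171338-180171637, + strand): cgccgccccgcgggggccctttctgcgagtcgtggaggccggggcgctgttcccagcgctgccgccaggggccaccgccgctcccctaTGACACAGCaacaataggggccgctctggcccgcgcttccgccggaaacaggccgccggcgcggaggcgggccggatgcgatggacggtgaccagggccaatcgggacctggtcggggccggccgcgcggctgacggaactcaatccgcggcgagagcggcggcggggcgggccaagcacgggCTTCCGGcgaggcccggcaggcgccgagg
Psmd12 (chr11:107479278-107479577, + strand): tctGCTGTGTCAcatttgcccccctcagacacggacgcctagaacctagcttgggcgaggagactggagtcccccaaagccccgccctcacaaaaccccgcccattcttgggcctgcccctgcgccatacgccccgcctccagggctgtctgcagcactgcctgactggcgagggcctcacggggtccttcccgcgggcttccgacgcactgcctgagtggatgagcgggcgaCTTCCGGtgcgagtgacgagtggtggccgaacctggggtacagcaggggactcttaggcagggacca
Psmc6 (chr14:45329574-45329873, + strand): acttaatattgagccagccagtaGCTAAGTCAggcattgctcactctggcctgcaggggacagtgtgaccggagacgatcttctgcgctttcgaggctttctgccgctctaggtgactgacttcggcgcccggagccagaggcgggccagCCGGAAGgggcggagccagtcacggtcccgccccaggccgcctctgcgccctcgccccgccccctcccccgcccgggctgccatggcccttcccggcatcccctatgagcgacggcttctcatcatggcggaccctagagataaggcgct
Pomp (chr5:147860378-147860677, + strand): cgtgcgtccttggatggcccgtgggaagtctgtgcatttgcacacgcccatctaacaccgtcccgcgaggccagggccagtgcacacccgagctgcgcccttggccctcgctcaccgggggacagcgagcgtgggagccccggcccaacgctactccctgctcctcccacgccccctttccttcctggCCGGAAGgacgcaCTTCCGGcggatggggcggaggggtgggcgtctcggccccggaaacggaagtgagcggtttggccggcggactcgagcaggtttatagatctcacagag
*Adrm1* and *Psmd12* held the same 9 letters TGACACAGC, in opposite orientations, 162 and 247 bases before the start. *Psmc6* held TGACTTAGC 227 bases before the start, in reverse. *Pomp* had no match to TGACNNNGC and held CCGGAAG in both orientations, 62 and 49 bases before its start.

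The scaled signal given below is the log2 of a signal minus the log2 of the array's own 75th percentile. This percentile ranged from 1448 on the MG132 array to 1669 on the epoxomicin array. All 53 member probes were well above background on all 4 arrays, none was saturated or marked as an outlier, and the signals of the members ranged from 680 to 129247 on the DMSO array. The macrophage markers *Csf1r*, *Lyz2*, *Itgam*, *Adgre1* and *Spi1* were well above background on every array. *Ncr1*, *Epcam* and *Col1a1* were not well above background on any array, whereas *Cd3e* (signals of 604 to 849) and *Pecam1* (140.0 to 191) were. With 1 array per condition there was no replicate check and no test, and a gene is said to have risen or fallen where it passed 1.5-fold (0.58 on the log2 scale) against DMSO. The spread between spots of one probe amounts to 0.0851 on the log2 scale for a difference and covers 1 RNA sample only. It rests on the median over 247 probes with repeated spots on the DMSO array and is not a value for each member. The gap between the probes of the 11 members with 2 probes could be larger, with medians of 0.13 (MG132), 0.08 (epoxomicin) and 0.07 (ONX0914). All 3 inhibitors were compared with the same DMSO array, so the 3 comparisons are not independent. Because whole cultures were measured, fewer cells with a transcript and less of it per cell cannot be told apart.

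Most members were higher with each inhibitor than with DMSO, by less than 2-fold. MG132 gave values above DMSO for 33 of the 42 members, epoxomicin for 30 and ONX0914 for 38. Among all genes compared, 6652 of 13855, 6540 of 13926 and 6842 of 13862 were above DMSO. For 5, 8 and 1 of the members the difference, in either direction, was smaller than the spot spread. In this order, the median log2 difference of the members was 0.22, 0.18 and 0.37, while the median of all genes compared was −0.02, −0.04 and −0.0045. With no scaling between arrays the member median with MG132 was 0.0307. No member reached 2-fold in either direction, whereas 7.2% of all genes were at least 2-fold higher with MG132, 8.45% with epoxomicin and 3.25% with ONX0914. By the same measure 3.67%, 4.39% and 1.39% of all genes were lower.

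At 1.5-fold, 6 members (14.3%) rose with MG132, where the share of all genes was 14.8%. With epoxomicin 6 members rose as well (14.3%), beside 16.5% of all genes. With ONX0914, 9 members rose (21.4%), beside 7.6% of all genes. Of the members, 1 fell by this measure, *Pomp* with epoxomicin, where 14.2% of all genes fell. No member fell with MG132 or ONX0914, where the shares of all genes were 12.9% and 5.14%. These shares depended on the processing. With normexp background correction 23.8% of members rose with MG132, 21.4% with epoxomicin and 35.7% with ONX0914, beside 7.99%, 9.08% and 3.33% of all genes. With outlier spots left out of its fit, a setting chosen after seeing the data, 14.3%, 14.3% and 11.9% rose, beside 10.8%, 11.3% and 4.13%. With no scaling between arrays 4.76% of members rose with MG132, beside 10.6% of all genes, and 9.52% with ONX0914, beside 6.92%. With the 75th percentile taken over probes well above background on all arrays, 9.52% rose with ONX0914, beside 6.84%. The authors' own log2 values gave 11.9% (MG132), 11.9% (epoxomicin) and 14.3% (ONX0914), beside 13.9%, 15.5% and 7.31% of all genes. The center of the members' values lay above that of all genes by 0.24, 0.22 and 0.38, and 33, 33 and 38 members lay above the median of all genes, as the cumulative plot shows. With no filter on dim probes the gap was 0.0924, 0.0720 and 0.29, with 27, 22 and 38 members above that median. With normexp the gap was 0.63, 0.62 and 0.67, and with outlier spots left out of its fit 0.15, 0.19 and 0.34.

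**Figure D1:**
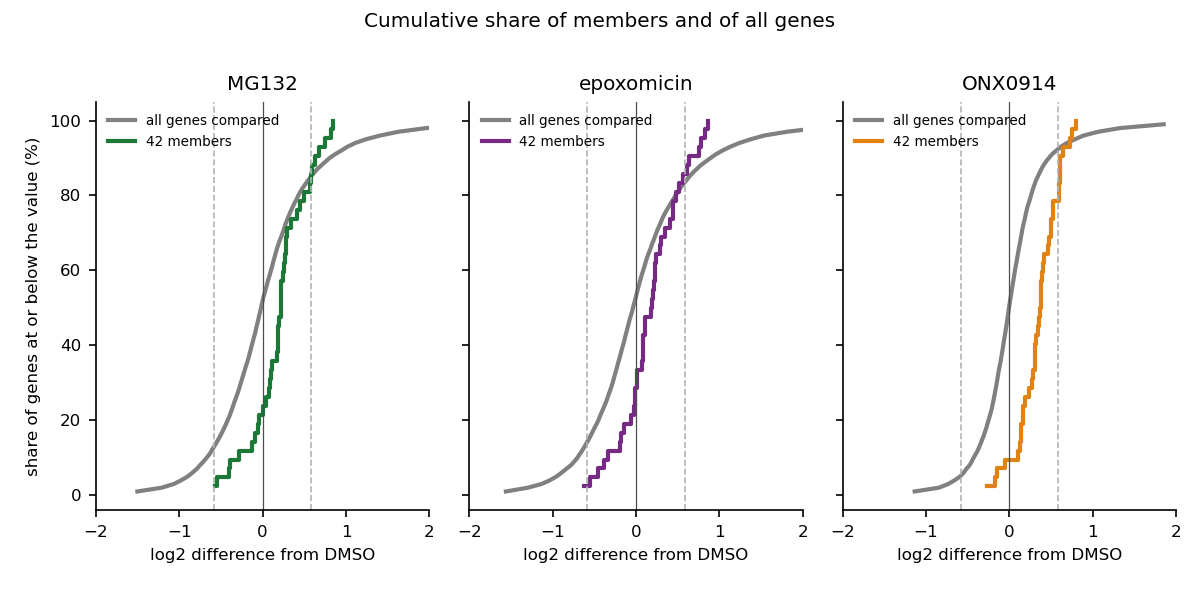
Cumulative share (%) of the 42 members (colored steps) and of all genes compared (gray line, from its 1st to its 99th percentile) against the log2 difference from DMSO, for each inhibitor. Dashed lines mark 1.5-fold. At the median the members lie to the right of all genes by 0.24 (MG132), 0.22 (epoxomicin) and 0.38 (ONX0914), the curves cross near or beyond the right dashed line, and no member passes 1 on the log2 scale.

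Brightness was looked at in a single range of DMSO signal, and the DMSO signal also enters every difference. Among the genes, members left out, whose DMSO signal lay within the middle range of the members' (5830 to 48525, their quartiles), the median difference was −0.14 (MG132), −0.14 (epoxomicin) and −0.04 (ONX0914). In this range 8.53%, 9.05% and 3.59% of genes were at least 1.5-fold higher. The part of brightness in the members' values was not tested.

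Members below DMSO with ONX0914 were *Psmd10*, *Psmg1*, *Psmg2* and *Psmg4*. With epoxomicin these 4 were lower as well, and so were *Psma2*, *Psma4*, *Psmb3*, *Psmb5*, *Psmd9*, *Psmd13*, *Pomp* and *Psme3*, with values from −0.63 to −0.01. With no scaling between arrays 11 of the 126 differences changed sign, and with normexp background correction 9 did. The plot of the members by class gives every value.

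**Figure D2:**
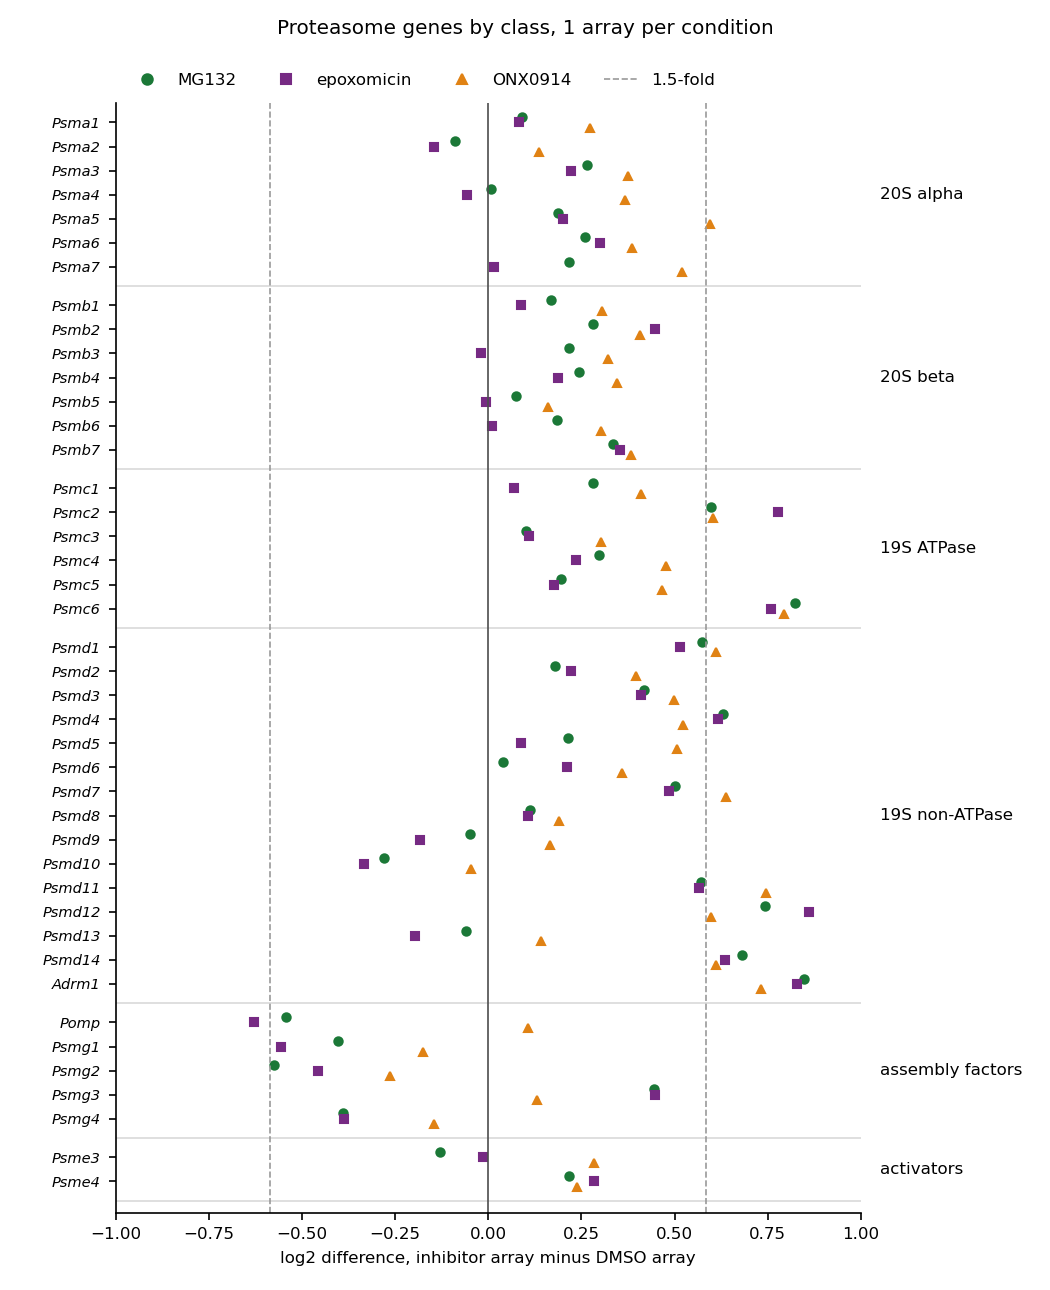
Log2 difference of each of the 42 members from DMSO with MG132 (circles), epoxomicin (squares) and ONX0914 (triangles), 1 array per condition, grouped by class. Dashed lines mark 1.5-fold in either direction. Adrm1, Psmc2, Psmc6, Psmd12 and Psmd14 lie past the right line with each inhibitor, of which Adrm1 and Psmc6 do so under every alternative processing, and 4 of the 5 assembly factors lie to the left of 0 with MG132 and epoxomicin.

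The α subunits form the outer rings of the core and its gate. Their median difference was 0.19 (MG132), 0.08 (epoxomicin) and 0.37 (ONX0914), and all 7 were above DMSO with ONX0914. *Psma5* had the largest mean difference of the class. Its scaled signal was 4.27 on the DMSO array, 4.46 (MG132), 4.47 (epoxomicin) and 4.87 (ONX0914), and it rose 1.51-fold with ONX0914. Its difference of 0.59 lay just past the threshold and was 0.55 with the percentile over detected probes and 0.56 with no scaling, while *Psma7* reached 0.67 with normexp. *Psma2* had the lowest mean difference, with scaled signals of 5.30, 5.21, 5.16 and 5.44 in the same order. It was thus 0.09 and 0.14 lower than DMSO with MG132 and epoxomicin and 0.14 higher with ONX0914. The other α subunits were between −0.06 (*Psma4*, epoxomicin) and 0.52 (*Psma7*, ONX0914).

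The β subunits had medians of 0.22, 0.09 and 0.32 with MG132, epoxomicin and ONX0914, and none of the 7 reached 1.5-fold. The 3 catalytic subunits lay between −0.01 and 0.38. *Psmb5*, which encodes β5, had scaled signals of 6.29 on the DMSO array, 6.37 (MG132), 6.29 (epoxomicin) and 6.46 (ONX0914), the lowest mean difference of the class. *Psmb6*, which encodes β1, had 5.63, 5.81, 5.64 and 5.93. *Psmb7*, which encodes β2, had 3.04, 3.38, 3.40 and 3.43. The 3 inhibitor arrays were thus above DMSO for *Psmb7* by 0.34 to 0.38, and for *Psmb5* only the ONX0914 array was above DMSO by more than the spot spread. With no scaling between arrays the differences with MG132 turned to −0.11 for *Psmb5* and −0.00044 for *Psmb6*. *Psmb2*, a subunit without catalytic activity, had the largest mean difference, with scaled signals of 1.73, 2.01, 2.18 and 2.14, and *Psmb1*, *Psmb3* and *Psmb4* lay between −0.02 and 0.35.

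The ATPases that form the base ring of the 19S regulator were all above DMSO with every inhibitor. This depended on the scaling. *Psmc3* with MG132 turned below DMSO with no scaling between arrays, and *Psmc1* with epoxomicin turned just below it with a shift to each array's median. Their medians were 0.29 (MG132), 0.21 (epoxomicin) and 0.47 (ONX0914), and 2 of the 6 rose with each inhibitor, beside 14.8%, 16.5% and 7.6% of all genes. *Psmc6*, which encodes the ATPase Rpt4, had scaled signals of 1.63 on the DMSO array, 2.45 (MG132), 2.39 (epoxomicin) and 2.43 (ONX0914). It rose 1.77-fold, 1.69-fold and 1.73-fold, so that the 3 inhibitor arrays lay within 0.06 of each other. *Psmc2*, which encodes Rpt1, had 4.43, 5.03, 5.21 and 5.03 and rose 1.51-fold, 1.71-fold and 1.52-fold. Under other processing it was as low as 0.41 with MG132 and 0.56 with ONX0914, short of the threshold. *Psmc3* had the lowest mean difference, with 5.39, 5.49, 5.49 and 5.69. *Psmc1*, *Psmc4* and *Psmc5* lay between 0.07 and 0.48 and did not reach 1.5-fold.

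The non-ATPase genes of the 19S regulator had the highest medians of the classes, 0.42 (MG132), 0.41 (epoxomicin) and 0.51 (ONX0914). Of the 15 genes, 4 rose with MG132, 4 with epoxomicin and 6 with ONX0914, beside the same shares of all genes. *Adrm1*, which encodes the receptor Rpn13, had the largest mean difference over all 42 members. Its scaled signal was 3.46 on the DMSO array, 4.31 (MG132), 4.29 (epoxomicin) and 4.20 (ONX0914), and it rose 1.80-fold, 1.78-fold and 1.66-fold. *Psmd4*, which encodes the receptor Rpn10, had 5.16, 5.79, 5.78 and 5.69, and rose 1.55-fold with MG132 and 1.53-fold with epoxomicin, while it was 1.44-fold above DMSO with ONX0914.

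The lid, a set of scaffold proteins around the deubiquitinase, is encoded by 8 of these genes, and its medians were 0.46, 0.45 and 0.55. *Psmd12*, which encodes the lid scaffold Rpn5, had scaled signals of 4.33 on the DMSO array, 5.07 (MG132), 5.19 (epoxomicin) and 4.93 (ONX0914) and rose 1.67-fold, 1.82-fold and 1.51-fold. *Psmd14*, the deubiquitinase, had 1.56, 2.24, 2.20 and 2.17 and rose 1.60-fold, 1.55-fold and 1.53-fold. Under other processing *Psmd12* was as low as 0.56 with MG132 and 0.55 with ONX0914, and *Psmd14* as low as 0.50, 0.56 and 0.55, which lie short of 1.5-fold. The 2 lid subunits *Psmd11* and *Psmd7* rose with ONX0914, by 0.75 and 0.64, and were at 0.57 and 0.50 with MG132 and at 0.56 and 0.48 with epoxomicin, just short of the threshold in the case of *Psmd11*. *Psmd13*, also of the lid, had scaled signals of 2.95, 2.89, 2.76 and 3.09, so that it was lower than DMSO by more than the spot spread with epoxomicin and higher with ONX0914. *Psmd3*, *Psmd6* and *Psmd8* lay between 0.04 and 0.50. The lid was therefore not uniform, and its values with epoxomicin ran from −0.20 for *Psmd13* to 0.86 for *Psmd12*.

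Of the large scaffold subunits of the base, *Psmd1* rose with ONX0914 (0.61) and was at 0.57 with MG132 and 0.51 with epoxomicin, while *Psmd2* lay at 0.18, 0.22 and 0.40. The median over the 21 genes of the 19S regulator exceeded that over the 14 of the 20S core by 0.09 (MG132), 0.15 (epoxomicin) and 0.14 (ONX0914), with 6, 6 and 8 of the 21 past 1.5-fold against 0, 0 and 1 of the 14, where 14.8%, 16.5% and 7.6% of all genes passed.

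The 3 chaperones of the base had medians of −0.05, −0.18 and 0.17. *Psmd10*, which encodes gankyrin, had scaled signals of 0.35 on the DMSO array, 0.07 (MG132), 0.02 (epoxomicin) and 0.30 (ONX0914), the lowest mean difference of the 19S genes. *Psmd9* had 0.70, 0.65, 0.51 and 0.86. *Psmd5* had 1.20, 1.41, 1.29 and 1.70, and so was above DMSO on every inhibitor array. Without these 3 genes, the medians of the non-ATPase class were 0.54, 0.50 and 0.56.

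The assembly factors of the core lay lower than the subunits, with medians of −0.40 (MG132), −0.46 (epoxomicin) and −0.14 (ONX0914). With the base chaperones counted among them these were −0.34, −0.36 and 0.03, so that the sign with ONX0914 turned. The median of these 5 genes was below that of the 20S core by 0.61, 0.54 and 0.50 on the log2 scale (values of −0.61, −0.54 and −0.50). *Pomp* had scaled signals of 4.15 on the DMSO array, 3.61 (MG132), 3.53 (epoxomicin) and 4.26 (ONX0914). It fell 1.55-fold with epoxomicin, was 1.46-fold lower with MG132 and 1.08-fold above DMSO with ONX0914. *Psmg1* had 3.46, 3.05, 2.90 and 3.28, and *Psmg2*, its partner, had −1.03, −1.60, −1.48 and −1.29, the lowest mean difference of all members. Both were thus lowest with MG132 or epoxomicin and closer to DMSO with ONX0914. *Psmg4* followed the same order, with 1.14, 0.74, 0.75 and 0.99. Its partner *Psmg3* went the other way, with 1.72, 2.17, 2.17 and 1.85, and was the only one of the 5 above DMSO with MG132 or epoxomicin.

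The activators open the core in place of the 19S regulator. *Psme3*, which encodes PA28γ, had scaled signals of 0.67 on the DMSO array, 0.54 (MG132), 0.65 (epoxomicin) and 0.95 (ONX0914). *Psme4*, which encodes PA200, had −1.28, −1.06, −0.99 and −1.04 by its brighter probe. Its dimmer probe gave differences of −0.01, −0.16 and −0.17, so that no direction can be given for *Psme4*.

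For the 11 members with 2 probes, the median gap between the probes' differences was 0.13 (MG132), 0.08 (epoxomicin) and 0.07 (ONX0914). The probes of *Psmd9* disagreed in sign with MG132 and epoxomicin, and those of *Psmb5* with MG132, where one gave 0.07 and the other −0.06. Both probes of *Psmd12* passed 1.5-fold with each inhibitor, and the dimmer one gave 0.89, 0.88 and 0.70. The second probe of *Psmc2* gave 0.57 with MG132, just short of 1.5-fold, and 0.67 and 0.61 with the others. The second probe of *Pomp* gave −0.41, −0.55 and 0.12, and hence did not reach 1.5-fold with epoxomicin. The plot of both probes shows this for every such member.

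**Figure D3:**
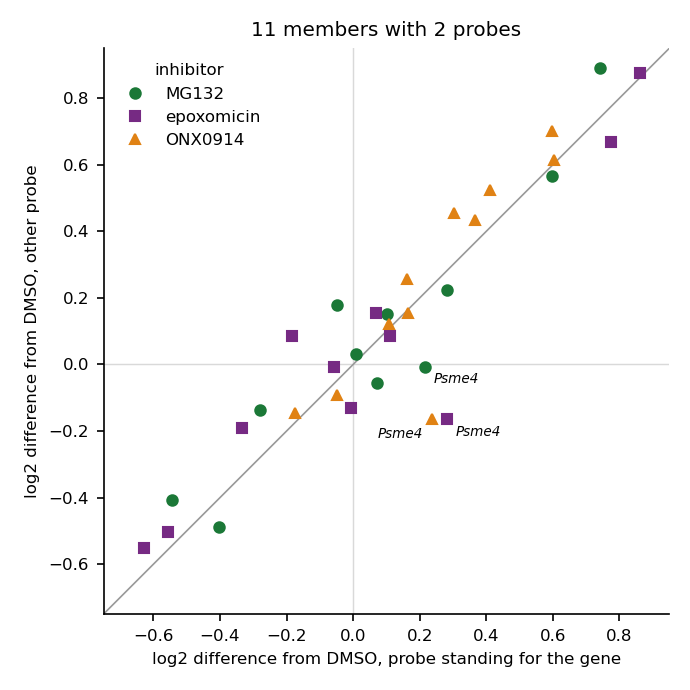
Log2 difference from DMSO by the probe that stands for the gene (horizontal) and by its other probe (vertical), for the 11 members with 2 probes and each inhibitor. The gray diagonal marks equal values. Points lie near the diagonal, and the largest gaps are those of Psme4, 0.45 with epoxomicin and 0.40 with ONX0914.

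The inhibitors could also be compared with each other at the same dose and time, without the DMSO array. No member differed by 1.5-fold between epoxomicin and MG132, where 4.39% of all genes did so, and the median difference was −0.02. Between ONX0914 and MG132, 36 of the 42 members were higher with ONX0914, by a median of 0.14, while the median of all genes was 0.03 and 13.9% of all genes differed by 1.5-fold. Against epoxomicin, 34 members were higher with ONX0914, by a median of 0.19, beside a median of 0.04 for all genes, of which 18.3% differed by 1.5-fold. In both comparisons *Pomp* was the single member past 1.5-fold, 1.57-fold above MG132 and 1.67-fold above epoxomicin by its brighter probe. Its other probe was at −0.41 (MG132), −0.55 (epoxomicin) and 0.12 (ONX0914) against DMSO. By that probe *Pomp* stayed short of 1.5-fold between ONX0914 and MG132 and passed it against epoxomicin. *Psmg3* was the member farthest in the other direction, with −0.32 against each. All 14 genes of the core were higher with ONX0914 than with MG132, by 0.05 to 0.41. *Adrm1*, *Psmc2*, *Psmc6*, *Psmd12* and *Psmd14* were picked for passing 1.5-fold with each inhibitor on these arrays. Such a choice favors high values on every inhibitor array, MG132 and ONX0914 included, and a low DMSO value. For them, ONX0914 minus MG132 lay between −0.14 (*Psmd12*) and 0.01 (*Psmc2*), a range not to be set against that of the core.

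**Figure D4:**
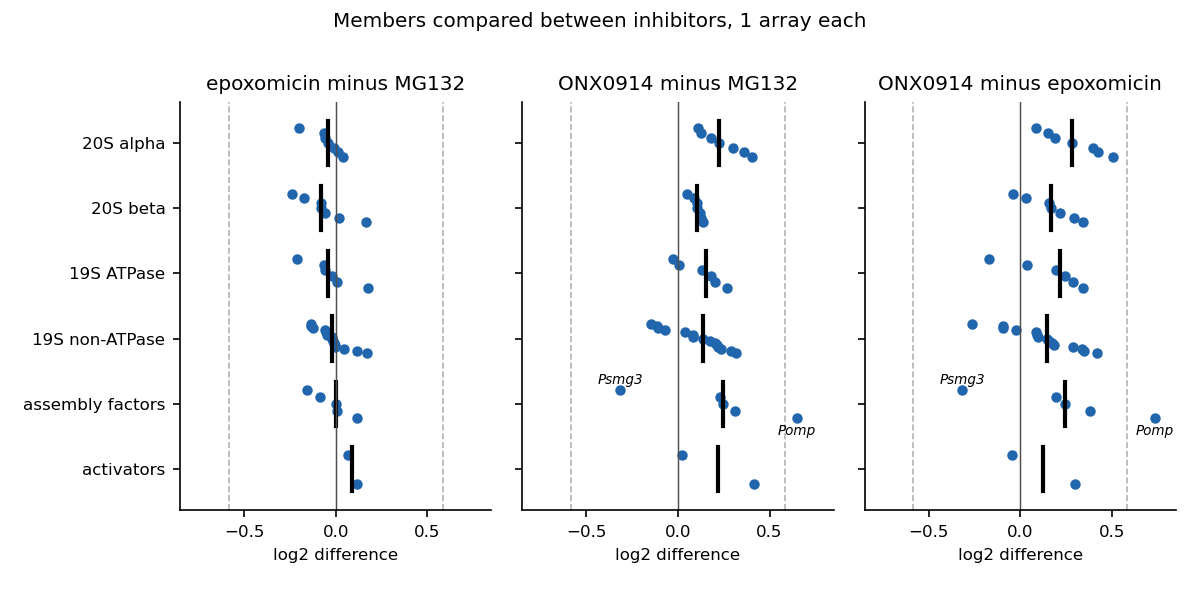
Log2 differences of the 42 members between pairs of inhibitors, by class, with 1 point per gene and a black bar at the class median. Dashed lines mark 1.5-fold. With epoxomicin minus MG132 the points center near 0, and in the other panels Pomp, by its brighter probe, lies alone past the right line.

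The macrophage markers *Lyz2* and *Spi1* were lower on the MG132 and epoxomicin arrays than on the DMSO array. *Lyz2* was at −0.60 (MG132), −1.01 (epoxomicin) and 0.14 (ONX0914), and *Spi1*, a myeloid transcription factor, was at −0.52, −0.97 and 0.08. *Csf1r* was at −0.16, −0.14 and −0.03, and *Itgam* was at 0.35, −0.05 and −0.28. *Adgre1* was lowest with MG132, at −0.13. The part of these changes in the members' values was not tested.

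Other genes of the pathway were described by their lists. *Nfe2l1*, which encodes Nrf1, had signals of 534 with DMSO, 934 (MG132), 823 (epoxomicin) and 796 (ONX0914), and rose by 0.99, 0.60 and 0.61. The 5 genes of the Nrf1 pathway had medians of 0.48, 0.38 and 0.39, and *Nfe2l2*, which encodes the related factor Nrf2, rose by 0.66 with MG132 and 0.76 with epoxomicin and was at 0.39 with ONX0914. *Vcp*, the segregase that extracts Nrf1 from the membrane, was at 0.48 and 0.38 and rose by 0.60 with ONX0914. *Ddi2* and *Ngly1*, the protease and the glycanase that process Nrf1, lay between −0.13 and 0.32.

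Among the proteins that bind the proteasome, *Zfand2a* and *Zfand5* had larger differences than any member with each inhibitor. Of the 10 proteasome-bound factors, the 2 zinc-finger genes *Zfand2a* (3.26, 3.60 and 1.88) and *Zfand5* (1.40, 1.53 and 1.26) rose with each inhibitor. This is 20% of the list, beside 14.8%, 16.5% and 7.6% of all genes. The other 8 factors, among them the deubiquitinases *Usp14* and *Uchl5*, lay between −0.36 and 0.57. The factor *Paaf1* was not analysed here.

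The inducible subunits of the immunoproteasome, which replace β1, β2 and β5 after interferon, and the PA28 genes had medians of −0.11, −0.12 and 0.09. None of the 5 reached 1.5-fold, where 14.8%, 16.5% and 7.6% of all genes rose by that much. Within this list, *Psmb9* was highest with MG132 and epoxomicin (0.31 and 0.33), and *Psmb8*, which encodes β5i, was at −0.16, −0.12 and 0.09. Of the 5 shuttle factors that carry ubiquitylated proteins to the receptors, *Ubqln1* rose with MG132 (0.61), and *Ubqln2* fell with MG132 and epoxomicin (−0.67 and −0.69). Among all genes 14.8% rose with MG132, while 12.9% fell with MG132 and 14.2% with epoxomicin.

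The COP9 signalosome and eIF3 are complexes built like the lid. The 13 eIF3 genes had medians of 0.27, 0.29 and 0.23. Of these, 3 (23.1%) rose with MG132 and 3 with epoxomicin, led by *Eif3a* (0.81 and 0.90), beside 14.8% and 16.5% of all genes. None rose with ONX0914, where 7.6% of all genes did. The 10 COP9 genes had medians of −0.17, −0.17 and −0.07. Of these, *Cops7a* fell with MG132 and epoxomicin (−0.90 and −0.86) and *Cops3* with MG132 (−0.64), beside 12.9% and 14.2% of all genes. The eIF3 medians were thus above those of the 26S members with MG132 and epoxomicin and below with ONX0914.

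**Figure D5:**
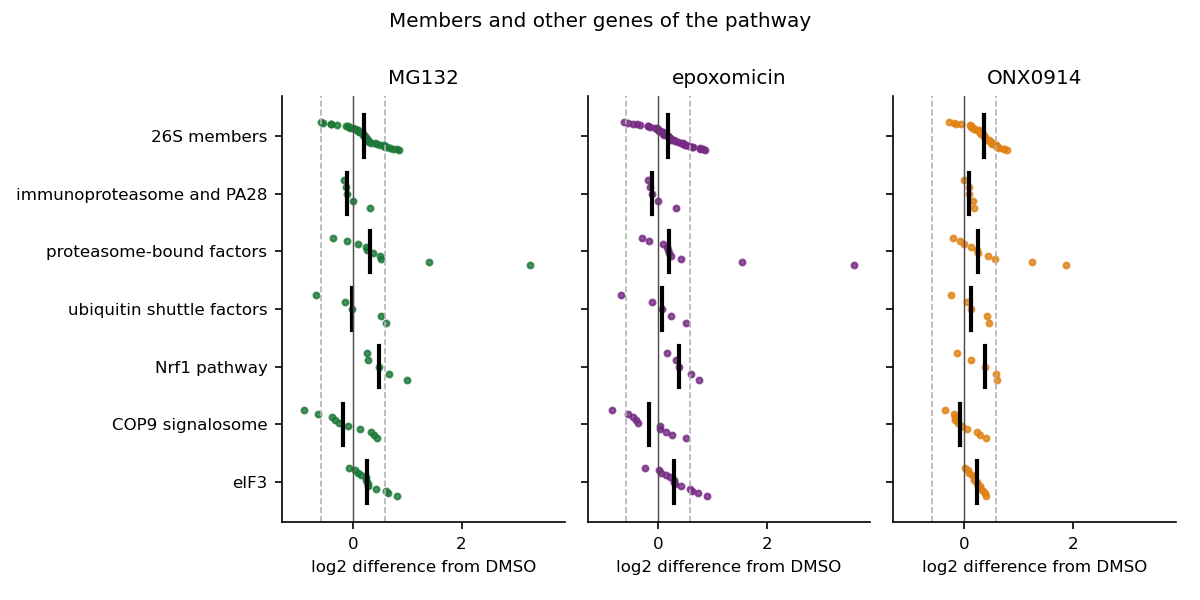
Log2 difference from DMSO of each gene (points) and the median (black bars) for the 42 members of the 26S proteasome and for 6 lists of related genes, with each inhibitor. Dashed lines mark 1.5-fold. The points beyond 1 in every panel are Zfand2a and Zfand5, and no member of the 26S proteasome reaches them.

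The promoter windows shown above were compared with those of all genes. A window was given for 35 of the 42 members, and none was given for *Psmb1*, *Psmb2*, *Psmb7*, *Psmc3*, *Psmd3*, *Psmd7* and *Psmg2*. TGACNNNGC, on either strand, was held by 7 of the 37 windows of these members (18.9%) and by 12.4% of all 32851 windows. These 7 were in *Adrm1*, *Psmb5*, *Psmb6*, *Psmc6*, *Psmd12*, *Psmd9* and *Psme4*, and their median difference was 0.22 (MG132), 0.28 (epoxomicin) and 0.30 (ONX0914), beside 0.21, 0.14 and 0.37 for the 28 without it. The list thus held the 3 genes with the largest mean difference and also *Psmb5*, which had the lowest of the β subunits.

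GGGCGG was held by 22 of the 37 windows (59.5%) and by 35.7% of all windows, and CCAAT by 13 (35.1%) and by 37.4% of all windows. CCGGAAG, added after the windows had been read, was held by 17 (45.9%) and by 8.86% of all windows. The 17 windows belonged to 16 members, which included all 4 genes shown, of which *Pomp* was the lowest in difference. Their median difference was 0.27, 0.29 and 0.39, beside 0.19, 0.08 and 0.35 for the 19 without it. A match describes letters in a window and does not show that a factor binds there.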

How the data were processed

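RNA of J774.1 cells was measured on 4 single-color arrays, 1 per condition. The deposited scanner files come from Feature Extraction (10.7.1.1) and give each spot's intensity, with the background subtracted by that software, and calls per spot. The authors also deposited a log2 value table made with GeneSpring, which matched the shifted intensities (r of at least 0.9996) after centering each probe on its median. Its column medians were −0.0475 (DMSO), 0.0180 (MG132), −0.0186 (epoxomicin) and 0.0134 (ONX0914), and it served as an alternative.

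From the intensities, control and outlier spots were left out, the log2 was taken, and the 75th percentile over the 43020 non-control spots was subtracted. Spots of one probe were averaged, and the probe with the highest mean stood for a gene. Of 39429 probes, 26581 were named through their accessions, and of 20144 genes 14384 passed the software's well-above-background call on an array. A gene was compared if it was well above background on 1 of the 2 arrays, with a bound in place of a signal that was not.

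The members and lists were chosen with earlier results of these data known. A few genes of the lists are not reported here. Every member is accounted for. Signals on each array are given for the catalytic subunits, for the members with the largest and the lowest mean difference of each class, for the genes *Adrm1*, *Psmd4*, *Pomp*, *Psmd5*, *Psmd9*, *Psmd10*, *Psme3* and *Psme4*, and for members whose probes disagree in sign. *Psmc2*, *Psmd14*, *Psmg1*, *Psmg3* and *Psmg4* were added after their values were seen.

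Alternatives were normexp (offset 50, on median pixel brightness), quantile normalization, other scalings or none, other probe summaries and filters, outlier spots kept, and other class membership. The number of arrays limits the precision. Calculations were tested on simulated data and used R 4.3.3 (limma 3.58.1) and Python 3.11.15 (matplotlib 3.10.9, numpy 2.4.6, pandas 2.3.3).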

Additional observations from a re-analysis of the deposited data

How the results depend on the processing

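Under the alternatives that were run for them, the member medians, the 19S minus 20S gaps and the assembly minus 20S gaps kept their sign. Shifting a whole array by a constant cannot move a gap between classes. Changing which other genes are kept moves neither a gap nor a member median. The gaps moved only with normexp, quantile normalization and the probe summaries, so the other alternatives say nothing about them. With *Psmd5*, *Psmd9* and *Psmd10* counted as assembly factors, a change for which no gap was computed, the median of that class with ONX0914 turned to 0.03, and the activators' median with MG132 turned below 0 with normexp, the median shift, no scaling and the mean or median over probes. With normexp background correction the member medians were 0.34 (MG132), 0.31 (epoxomicin) and 0.49 (ONX0914), and 1 member reached 2-fold with MG132 and 1 with epoxomicin. By this correction 10 members (23.8%) rose 1.5-fold with MG132 and 15 (35.7%) with ONX0914, beside 7.99% and 3.33% of all genes. The assembly factors then lay −0.71 from the 20S core with epoxomicin, and the members exceeded the median of all genes by 0.63, 0.62 and 0.67. That correction moved the median of all genes by −0.27, −0.28 and −0.18. With outlier spots left out of its fit, chosen after seeing the data, that median moved by 0.05, 0.0027 and −0.0030. The members then exceeded it by 0.15, 0.19 and 0.34, and 5 members (11.9%) rose with ONX0914, beside 4.13% of all genes. A shift to each array's median gave a member median of 0.11 and 3 members (7.14%) with MG132, beside 12.3% of all genes. The percentile over detected probes gave 4 members (9.52%) with ONX0914, beside 6.84% of all genes. No scaling gave a median of 0.0307 and 2 members (4.76%) with MG132, beside 10.6% of all genes. It gave 4 members (9.52%) with ONX0914, beside 6.92%. With no filter on dim probes, the members exceeded the median of all genes by 0.0924, 0.0720 and 0.29. Scaling to genes in the members' range of brightness, chosen after seeing the data, gave medians of 0.35 and 0.33 with MG132 and epoxomicin. By this scaling 10 and 11 members (23.8% and 26.2%) were 1.5-fold higher, beside 19.3% and 21.3% of all genes, and 1 member was 2-fold higher with epoxomicin. Under every alternative *Adrm1* (0.66 or more) and *Psmc6* (0.64 or more) stayed past 1.5-fold with each inhibitor, while *Psmc2*, *Psmd12* and *Psmd14* did not, and *Psmd10*, *Psmg1*, *Psmg2* and *Psmg4* stayed below 0. *Pomp* ranged from −0.73 to −0.37 with MG132, −0.71 to −0.45 with epoxomicin and 0.06 to 0.27 with ONX0914. No paired analysis was possible because each group has 1 array.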
